A study of Saccharomyces cerevisiae with 4 samples.

Results

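The genes described here encode the enzymes that build purine and pyrimidine nucleotides and their deoxy forms, and a uracil permease, in the yeast Saccharomyces cerevisiae. They are 34 of the 6600 coding sequences in the deposited table, chosen by systematic name: the ADE genes other than ADE1 and ADE3, IMD2 to IMD4, GUA1, the URA genes other than URA3, FUR1, FUR4, RNR1 to RNR4, CDC21, DUT1 and PRS1 to PRS5. All 34 were found and all passed the filter on low counts. The rule uses names and no measured values.

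The series compared ribosome profiles, that is, counts of mRNA fragments that ribosomes shield from nuclease, between a wild type (WT) and a strain with an in-frame OAZ1 in place of the frameshifted gene, called mutant here. Both are in the 74D-694 background, were grown in synthetic medium to mid-exponential phase and received cycloheximide at 50 µg/mL, which stalls ribosomes on the mRNA. Each strain had 2 libraries. Whether replicates were separate cultures or clones is not given in the sources used here, so p-values measure the spread between these libraries, which may be technical. No matched mRNA libraries were analysed, and mRNA level and ribosomes per mRNA cannot be told apart.

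As background, nucleotide synthesis starts from phosphoribosyl pyrophosphate (PRPP). Purines are assembled stepwise on PRPP to inosine monophosphate (IMP), which is then turned into AMP or GMP. Pyrimidines are closed into a ring before PRPP is added, and ribonucleotide reductase later makes the deoxy forms. In yeast the activators Bas1 and Pho2 switch on the ADE genes when adenine is short, and Ppr1 switches on URA genes when uracil is short. The 74D-694 background is known for a premature stop codon in ADE1 and an interrupted URA3, so such cells as a rule take adenine and uracil from the medium. Antizyme, the product of OAZ1, limits the synthesis of polyamines.

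WT replicates 1 and 2 held 29671498 and 10202557 counts, and mutant replicates 1 and 2 held 7571371 and 2826895. OAZ1 itself stood at 12.7 and 10.7 CPM in the WT libraries, where CPM is counts per 1000000 after TMM normalization, and at 20.5 and 18.1 CPM in the mutant libraries. The log2 fold change of OAZ1 was 0.73 (SE 0.22, adjusted p = 0.755, edgeR's quasi-likelihood test). A total per coding sequence does not show the reading frame, so this does not check the exchange. Over all genes the library furthest from the rest was WT replicate 1. Among 4598 genes averaging 100 counts or more, log2 differences had an SD of 0.508 between the WT libraries, 0.295 between the mutant libraries and 0.222 between WT replicate 2 and mutant replicate 1. Over the 32 nucleotide synthesis genes at that depth the same SDs were 0.250, 0.231 and 0.208. For these genes the widest SD was 0.328, between WT replicate 2 and mutant replicate 2. Mutant replicate 2 was the highest library for 17 of the 34 and the lowest for 7. Among the 5233 genes tested it was highest for 1528 and lowest for 1609.

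None of the 34 genes passed the test between strains. The median size of their log2 fold change, without the sign, was 0.17, against 0.18 for all genes. In simulated counts the test called 4.78% of genes changed 1.5-fold, so differences of that size could be missed. In edgeR's quasi-likelihood test, adjusted over 5233 genes, 0 genes were called higher and 0 lower in the whole table (0% in each direction), and the smallest adjusted p among the 34 was 0.755. DESeq2 also called 0 of the 34, against 0 of all genes higher (0%) and 4 lower (0.0764%). At an unadjusted p under 0.05 there were 2 of 34, GUA1 and IMD4, or 5.88%, against 5.45% of all genes. Both were on the higher side, which held 1.72% of all genes, and 0 of 34 were on the lower side, which held 3.73%. This count moved with the libraries used. It was 6 of 34 (17.6%, all genes 6.91%) without WT replicate 1 and 3 of 34 (8.82%, all genes 28.2%) without WT replicate 2. It was 0 of 34 without mutant replicate 1 (all genes 2.54%) or mutant replicate 2 (all genes 0.227%). The median log2 fold change, mutant minus WT, was 0.06 for the 34 genes and -0.01 for all genes, with 20 of 34 above 0 (58.8%) against 48.4% of all genes. A difference of over 1.5-fold was seen for 1 of the 34 (2.94%), FUR4, and for 12.5% of all genes. Without WT replicate 1 it was again 1 of the 34, then URA7 at 0.64, and the share of all genes was 3.92%. Without WT replicate 1 the median was 0.14, 25 of 34 lay above 0 (73.5%, against 50.6% of all genes), and again 0 of the 34 passed, where 0.325% of all genes were called higher and 0.42% lower.

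The groups did not overlap for 13 of the 34 genes (38.2%), close to the 36.9% of all genes. In 10 of them both mutant libraries were above both WT libraries (all genes 19.1%): ADE12, IMD4, GUA1, URA7, FUR1, RNR4, CDC21, DUT1, PRS2 and PRS4. In 3 both were below (all genes 17.9%): ADE2, ADE16 and URA4. By role, 1 of 9 purine genes lay above 0, with a median of -0.11, while 5 of 5 PRPP synthetase genes did, with a median of 0.18. The GMP branch had 3 of 4 above 0 (median 0.20), pyrimidine synthesis 5 of 8 (0.05) and deoxynucleotide synthesis 5 of 6 (0.21). These role counts and medians also moved with the libraries. With 1 library left out, 2 to 4 of the 9 purine genes lay above 0, with medians from -0.17 without mutant replicate 1 to -0.06 without mutant replicate 2. The 5 PRPP synthetase genes all stayed above 0, with medians of 0.20 without WT replicate 1, 0.29 without mutant replicate 1, 0.08 without WT replicate 2 and 0.06 without mutant replicate 2. The difference between roles was not tested.

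**Figure D1:**
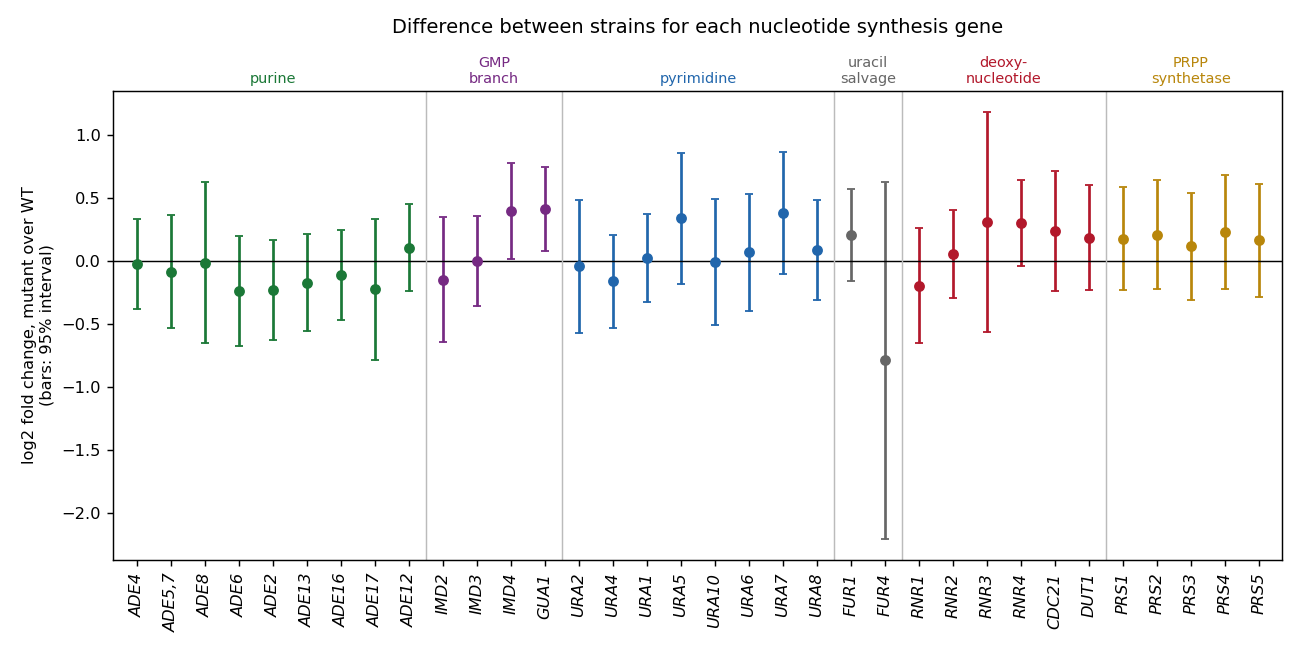
Points give the log2 fold change of each of the 34 genes, mutant over WT, and bars its 95% interval from the fit over 5233 genes, coloured by role along the pathway. The intervals of GUA1 (0.08 to 0.75) and IMD4 (0.02 to 0.78) lie above 0 before adjustment, the others cross it, and FUR4 has the widest interval.

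The levels of the 34 genes spanned a 1337-fold range. They are given as CPM per kb of coding sequence, so that genes of different length can be set side by side. The mean over the 4 libraries ranged from 1652 CPM per kb for RNR2 to 1.24 CPM per kb for RNR3. Of 5210 genes ranked on this scale, RNR2 was number 136, RNR4 number 191 and ADE17 number 263. Of the 34 genes, 22 were among the top 1000, and the median gene was at the 86.4th percentile. FUR4 was at the 3.36th and RNR3 at the 1.27th percentile.

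**Figure D2:**
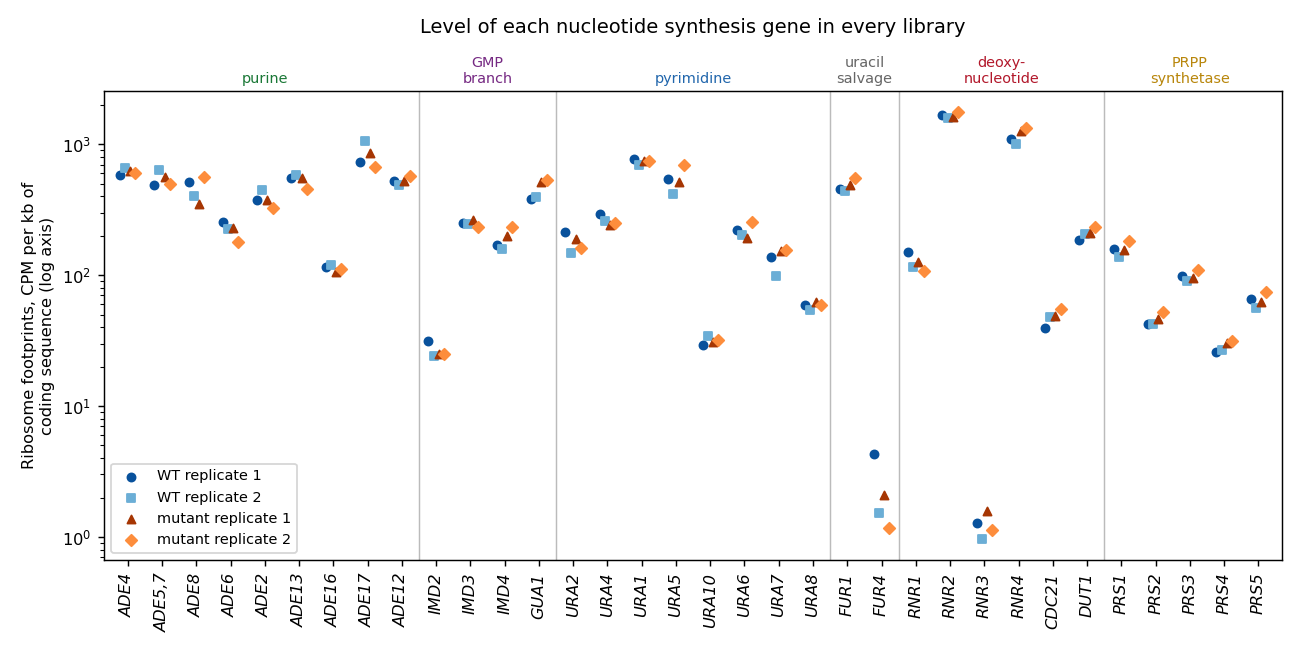
The level of each gene in CPM per kb of coding sequence, on a log axis, with 1 point per library and genes in order of role. The extremes are far apart: RNR2 lies between 1577 and 1757 CPM per kb in the 4 libraries and RNR3, a large subunit gene, between 0.97 and 1.57.

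PRPP synthetase makes the phosphoribosyl donor that both nucleotide pathways, and histidine and tryptophan synthesis, draw on. PRS1 (YKL181W) had 205 and 178 CPM in the WT libraries against 200 and 234 CPM in mutant. Values are in the order of replicates 1 and 2 here and in what follows. PRS4 (YBL068W) had 25.3 and 26.3 CPM in the WT libraries against 29.9 and 30.7 CPM in mutant. For PRS4 and PRS2 the groups did not overlap, and for PRS1, PRS3 and PRS5 they did. The log2 fold changes were close to each other, at 0.18 for PRS1, 0.21 for PRS2 (YER099C), 0.12 for PRS3 (YHL011C), 0.23 for PRS4 and 0.17 for PRS5 (YOL061W), with SEs of 0.17 to 0.19 and adjusted p of at least 0.823 (edgeR). In each of the 5 genes mutant replicate 2 was the highest library. All 5 stayed above 0 with any library left out, but without mutant replicate 2 PRS3 was at 0.01, PRS5 at 0.05 and PRS1 at 0.06.

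Ratios between these subunits are given in CPM per kb. PRS1 and PRS3, whose products form a complex, stood at 1.62 and 1.54 in WT and 1.64 and 1.66 in mutant, as PRS1 over PRS3. PRS1 over PRS5 was 2.43 and 2.47 in WT and 2.48 and 2.45 in mutant. The libraries were further apart for PRS1 over PRS2, from 3.25 to 3.78, and for PRS1 over PRS4, from 5.11 to 6.19. PRS4 was the least abundant of the 5, at 28.6 CPM per kb on average, against 159 CPM per kb for PRS1.

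The purine pathway from PRPP to IMP and AMP held the most footprints of the 6 roles. Its 9 genes took 0.711% and 0.814% of all counts in the WT libraries and 0.752% and 0.628% in the mutant libraries, and the groups overlapped. The hexamer TGACTC is the core of the sites of Bas1, and it also lies within the longer site of Gcn4, the activator of amino acid synthesis, so that the letters alone do not say which. It was searched on both strands of the 500 bases before each start codon. It was found for 8 of the 9 purine genes, all but ADE16, and for 12 of the 34 genes (35.3%), against 12.9% of 5896 coding sequences. A match is a description of the letters and not a measured site. The match nearest the start codon of each of these genes is shown because the set follows the known regulon, with the hexamer or its reverse complement in capitals, in the gene's own direction, from RefSeq assembly R64.
ADE4 (chrXIII:867431-867460, minus strand): gacccgatgtatTGACTCttcctgaccgaa
ADE5,7 (chrVII:56286-56315, plus strand): acaagtgccgacTGACTCgtgtcctggtaa
ADE8 (chrIV:1289009-1289038, minus strand): actcgttgctagTGACTCtgacctgttttt
ADE6 (chrVII:616224-616253, minus strand): ttcaaccgttccTGACTCtttcctgctgac
ADE2 (chrXV:566327-566356, minus strand): atactaagtgatTGACTCttgctgaccttt
ADE13 (chrXII:844054-844083, plus strand): cctccgcgagcaGAGTCAaacttcaaacaa
ADE17 (chrXIII:509440-509469, minus strand): ccagaaatgaatTGACTCctctcataactt
ADE12 (chrXIV:234179-234208, plus strand): atccttttcattGAGTCAcagattaacaaa
ADE2, ADE5,7, ADE8, ADE17 and ADE12 each held a second match. Outside the purine genes the hexamer was found for GUA1, URA2, URA4 and URA10.

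ADE4 (YMR300C) encodes the amidotransferase that commits PRPP to purines. It had 888 and 1019 CPM in the WT libraries against 950 and 927 CPM in mutant, so the groups overlapped, and its log2 fold change was -0.02 with a 95% interval from -0.38 to 0.34. ADE5,7 (YGL234W) encodes a single protein with 2 activities, glycinamide and aminoimidazole ribotide synthetase. It had 1171 and 1541 CPM in the WT libraries against 1364 and 1198 CPM in mutant. ADE17 (YMR120C) is the main form of the enzyme of the last steps to IMP. It had 1297 and 1879 CPM in the WT libraries against 1525 and 1193 CPM in mutant, and its log2 fold change was -0.22 (SE 0.23, adjusted p = 0.859, edgeR). For ADE5,7 and ADE17 the WT libraries lay on either side of the mutant mean, and WT replicate 2 was the highest of the 4 libraries. Leaving out WT replicate 1 put the log2 fold change of ADE17 at -0.47, and leaving out WT replicate 2 put it at 0.07.

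WT replicate 2 was the highest library for 6 of the 9 purine genes: ADE4, ADE5,7, ADE2, ADE13, ADE16 and ADE17. Among all genes tested it was highest for 1074 of 5233. ADE1, the step between ADE2 and ADE13, was looked at after its values were seen, since it holds the hexamer too. It had 492 and 679 CPM in the WT libraries against 564 and 551 CPM in mutant, again with WT replicate 2 highest. Of the other nucleotide synthesis genes with the hexamer, URA10 was also highest in WT replicate 2. ADE6, URA2 and URA4 were highest in WT replicate 1, and ADE8, ADE12 and GUA1 in mutant replicate 2. The median log2 deviation of the 9 purine genes from their own means was -0.0037 and 0.11 in the WT libraries and 0.008 and -0.13 in the mutant libraries.

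ADE2 (YOR128C), aminoimidazole ribotide carboxylase, whose loss turns colonies red, had 639 and 767 CPM in the WT libraries against 638 and 562 CPM in mutant. WT replicate 1 and mutant replicate 1 were nearly equal, and the groups were only just apart. Its log2 fold change was -0.23 (SE 0.16, adjusted p = 0.798, edgeR). ADE6 (YGR061C), which makes formylglycinamidine ribotide, had 1044 and 917 CPM in the WT libraries against 935 and 727 CPM in mutant. ADE13 (YLR359W), adenylosuccinate lyase, acts on the way to IMP and again on the way to AMP, and had 794 and 844 CPM in the WT libraries against 796 and 659 CPM in mutant. In ADE6, ADE2, ADE13 and ADE17 mutant replicate 2 was the lowest library.

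ADE8, ADE16 and ADE12 had other profiles. ADE8 (YDR408C), glycinamide ribotide transformylase, had 330 and 262 CPM in the WT libraries against 224 and 365 CPM in mutant. Its lowest and highest values were both in mutant, and the log2 fold change of -0.01 became 0.31 without mutant replicate 1 and -0.40 without mutant replicate 2. ADE16 (YLR028C), the minor form of the ADE17 enzyme and the purine gene with no match to the hexamer, had 206 and 211 CPM in the WT libraries against 188 and 199 CPM in mutant. ADE12 (YNL220W), adenylosuccinate synthase, starts the branch to AMP and had 686 and 641 CPM in the WT libraries against 687 and 742 CPM in mutant. ADE12 was the single purine gene above 0, at 0.11 (SE 0.14, adjusted p = 0.889, edgeR).

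ADE17 outweighed ADE16 in every library. In CPM per kb ADE17 over ADE16 was 6.27 and 8.89 in WT and 8.08 and 5.996 in mutant. ADE17 thus held 86.3% (95% Wilson interval 85.9 to 86.6) and 89.9% (89.5 to 90.3) of the counts of the pair in WT, and 89.0% (88.5 to 89.5) and 85.7% (84.6 to 86.8) in mutant. The 2 WT libraries were further apart than their counting error, and the groups overlapped.

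**Figure D3:**
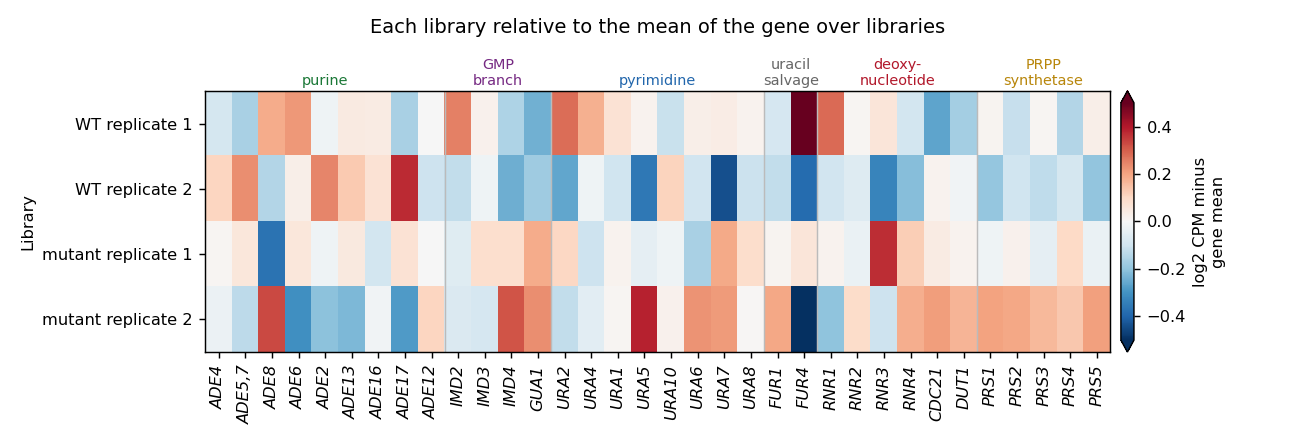
Colours give the log2 CPM of each gene in each library minus the mean of that gene over the 4 libraries, clipped at 0.5 either way. ADE5,7, ADE2 and ADE17 are reddest in WT replicate 2, while the 5 PRS genes are reddest in mutant replicate 2.

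The branch from IMP to GMP held the 2 genes with the smallest unadjusted p. GUA1 (YMR217W), GMP synthase, had 604 and 630 CPM in the WT libraries against 810 and 838 CPM in mutant. The gap between the groups was wide against the difference within each, with means of 617 CPM ± 18.3 (SD, n = 2) in WT and 824 CPM ± 19.5 (SD, n = 2) in mutant. Its log2 fold change was 0.42 (SE 0.14, 95% interval 0.08 to 0.75), with an unadjusted p of 0.022 and an adjusted p of 0.755 (edgeR). With each library left out in turn it stayed between 0.39 and 0.45. GUA1 also holds the hexamer, shown here for comparison with the ADE genes.
GUA1 (chrXIII:701508-701537, plus strand): ttcccgacatttTGACTCttttcatgccgt

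IMP dehydrogenase, which feeds GUA1, is encoded by IMD2, IMD3 and IMD4. IMD4 (YML056C), the form with an intron, had 267 and 251 CPM in the WT libraries against 315 and 369 CPM in mutant, a log2 fold change of 0.40 (SE 0.16, adjusted p = 0.755, edgeR). IMD3 (YLR432W) had 397 and 386 CPM in the WT libraries against 415 and 369 CPM in mutant, and the mutant values lay on either side of WT. IMD2 (YHR216W), known for its response to low guanine nucleotides, had 49.1 and 37.8 CPM in the WT libraries against 39.5 and 39.2 CPM in mutant. WT replicate 1 was alone in being high for IMD2. These values are uncertain, since 53.4% of the 28-mers of IMD2, 29.0% of those of IMD3 and 11.95% of those of IMD4 occur elsewhere in the genome, and how reads matching several places were counted is not stated in the sources used here. Apart from each other, the copies lie on chromosome I. Among the other 31 genes this share was 0.417% for RNR1, 0.426% for RNR3 and 0 for the remaining 29.

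IMD3 was above IMD4 in WT and less so in mutant. In CPM per kb IMD3 over IMD4 was 1.49 and 1.54 in WT and 1.32 and 1.00 in mutant. The ratio at the split of IMP, GUA1 over ADE12, was 0.73 and 0.81 in WT and 0.97 and 0.93 in mutant. Both ratios kept the groups apart. With 2 libraries against 2 the smallest 2-sided p of an exact permutation test is 0.333, which both had. Of 16 ratios compared in this way 8 had that p, and the smallest adjusted p was 0.667, so none could pass.

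Pyrimidine synthesis opens with URA2, a single long protein with carbamoyl phosphate synthetase and aspartate transcarbamylase activity that UTP inhibits. URA2 (YJL130C) had 1428 and 982 CPM in the WT libraries against 1262 and 1081 CPM in mutant, with both mutant values inside the range of WT. Its log2 fold change was -0.04 (95% interval -0.57 to 0.48), and it moved to 0.25 without WT replicate 1 and -0.28 without WT replicate 2. URA4 (YLR420W), dihydroorotase, had 324 and 282 CPM in the WT libraries against 266 and 276 CPM in mutant, the 1 gene of this role with both mutant values below WT. URA1 (YKL216W), dihydroorotate dehydrogenase, had 735 and 653 CPM in the WT libraries against 708 and 704 CPM in mutant, a log2 fold change of 0.02 (95% interval -0.33 to 0.37). URA1 is a known target of Ppr1, and it was the 1 gene of the 34 with the letters TTCGG and CCGAA parted by 6 bases in the 500 bases before the start codon, a pattern found in 0.0339% of coding sequences on either strand and shown in capitals.
URA1 (chrXI:25025-25054, plus strand): cacgatcTTCGGCATTCGCCGAAaattttt
PPR1 itself had 8.52 and 5.74 CPM in the WT libraries against 6.16 and 5.55 CPM in mutant, and the groups overlapped.

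URA5 and URA10 encode forms of orotate phosphoribosyltransferase, which joins the ring to PRPP. URA5 (YML106W) had 370 and 284 CPM in the WT libraries against 354 and 476 CPM in mutant, a log2 fold change of 0.34 (SE 0.21, adjusted p = 0.761, edgeR). Mutant replicate 2 stood alone as high, and without it the value was 0.11. URA10 (YMR271C) had 19.9 and 23.3 CPM in the WT libraries against 21.2 and 21.8 CPM in mutant, with no difference between the strains beyond the spread. In CPM per kb URA5 over URA10 ranged from 12.3 in WT replicate 2 to 21.9 in mutant replicate 2.

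The last steps make UTP and CTP. URA6 (YKL024C), the UMP kinase, had 136 and 125 CPM in the WT libraries against 119 and 155 CPM in mutant, with mutant on both sides of WT. URA7 (YBL039C), the main CTP synthase, had 238 and 172 CPM in the WT libraries against 266 and 270 CPM in mutant, a log2 fold change of 0.38 (SE 0.20, adjusted p = 0.755, edgeR). Both mutant libraries were above WT, but the WT libraries differed by more than WT replicate 1 differed from mutant, and the value was 0.17 without WT replicate 2. URA8 (YJR103W), the minor form, had 103 and 94.8 CPM in the WT libraries against 108 and 102 CPM in mutant. URA7 over URA8 in CPM per kb was 2.30 and 1.81 in WT and 2.44 and 2.63 in mutant.

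Uracil from the medium enters through the permease FUR4 and is joined to PRPP by FUR1, uracil phosphoribosyltransferase. FUR1 (YHR128W) had 297 and 289 CPM in the WT libraries against 317 and 360 CPM in mutant, a log2 fold change of 0.21 (SE 0.15, adjusted p = 0.791, edgeR). FUR4 (YBR021W) had few counts, 245 and 30 in WT and 31 and 6 in mutant, or 8.19 and 2.92 CPM and 3.98 and 2.22 CPM. WT replicate 1 was the highest, and the other 3 libraries lay between 2.22 and 3.98 CPM. Its log2 fold change was -0.79 (95% interval -2.20 to 0.63) with all libraries and 0.24 without WT replicate 1. Without WT replicate 2 it was -1.24 (adjusted p = 0.00166, edgeR), the 1 call among the 34 genes in any fit, in a fit that called 14.9% of all genes lower and 4.35% higher.

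WT replicate 1 was the highest library for 1789 of the 5233 genes tested, and also for 3 other transporter genes. FUN26, a nucleoside transporter of internal membranes, had 25.9 and 12.6 CPM in the WT libraries against 10.8 and 9.25 CPM in mutant. FUI1, the uridine permease, had 53.1 and 22.9 CPM in the WT libraries against 21.4 and 21.1 CPM in mutant. FCY2, the purine and cytosine permease, had 294 and 146 CPM in the WT libraries against 156 and 155 CPM in mutant. The log2 fold change of FUN26 was -0.94 with all libraries, -0.30 without WT replicate 1 and -1.34 without WT replicate 2, where it passed (adjusted p = 1.2e-07, edgeR). FUI1 and FCY2 were picked after their values were seen.

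Ribonucleotide reductase turns ribonucleotides into deoxyribonucleotides with a large subunit, RNR1 or RNR3, and a small subunit made of RNR2 and RNR4. RNR2 (YJL026W) had 1995 and 1893 CPM in the WT libraries against 1934 and 2109 CPM in mutant, and its log2 fold change was 0.06 (95% interval -0.29 to 0.40). RNR4 (YGR180C) had 1136 and 1046 CPM in the WT libraries against 1319 and 1376 CPM in mutant, a log2 fold change of 0.30 (SE 0.14, adjusted p = 0.755, edgeR). RNR4 kept the groups apart and stayed between 0.25 and 0.36 with any library left out. RNR2 over RNR4 in CPM per kb was 1.52 and 1.56 in WT and 1.27 and 1.33 in mutant. RNR2 held 63.7% (95% Wilson interval 63.4 to 64.03) and 64.4% (63.9 to 64.9) of the counts of the pair in WT and 59.4% (58.8 to 60.1) and 60.5% (59.5 to 61.5) in mutant. These intervals cover counting error only. The shift between strains was larger than the spread within either. The exact permutation p was 0.333, the smallest possible with 2 libraries against 2. Of the 16 ratios 8 had that p, so this test could not set RNR2 over RNR4 apart.

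RNR1 (YER070W) had 404 and 311 CPM in the WT libraries against 335 and 288 CPM in mutant, and the groups overlapped. RNR3 (YIL066C), which is known to be induced by DNA damage, had 99 and 26 counts in WT and 32 and 8 in mutant, or 3.31 and 2.53 CPM and 4.11 and 2.96 CPM. The log2 fold change of RNR3 was 0.31 (SE 0.36), and its groups overlapped. RNR1 over RNR3 was 119 and 120 in WT and 79.9 and 95.3 in mutant, in CPM per kb, with as few as 8 counts behind RNR3. HUG1, also known to be induced by damage, was chosen after its values were seen. It too had few counts, 72 and 38 in WT and 32 and 14 in mutant. These were 2.41 and 3.70 CPM in the WT libraries against 4.11 and 5.18 CPM in mutant. The log2 fold change of HUG1 was 0.61 (SE 0.38, adjusted p = 0.756, edgeR).

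CDC21 (YOR074C), thymidylate synthase, had 36.3 and 44.1 CPM in the WT libraries against 44.8 and 50.3 CPM in mutant. DUT1 (YBR252W), the dUTPase that also supplies dUMP to CDC21, had 81.9 and 91.3 CPM in the WT libraries against 93.3 and 104 CPM in mutant. In both the groups were apart by a small step from WT replicate 2 to mutant replicate 1. The hexamer ACGCGT, the MluI box of genes transcribed before S phase, was in the 500 bases before 3 of the 6 deoxynucleotide genes, RNR1, RNR3 and CDC21, and before none of the other 31 genes, against 5.44% of coding sequences. It reads the same on both strands. The matches nearest the start codon are shown with the box in capitals, since RNR1 and CDC21 are known targets of the factor that reads it.
RNR1 (chrV:298632-298661, plus strand): gttgaatagaggACGCGTaaaaacgatatg
RNR3 (chrIX:240878-240907, minus strand): tgtgagatgctgACGCGTttcgtttttcgt
CDC21 (chrXV:467693-467722, minus strand): agaccttaattgACGCGTttcctgaaatat

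The 41 other genes of the pathway, which salvage, interconvert or transport nucleotides or regulate their synthesis, also held no call with all libraries. Of these 30 lay above 0 (73.2%, against 48.4% of all genes) and 11 below, with a median of 0.12, and without WT replicate 1 there were 24 above 0 (58.5%, against 50.6% of all genes) with a median of 0.09. The groups did not overlap for 21 of the 41 (51.2%, against 36.9% of all genes), with 15 higher and 6 lower in mutant, and 4 had an unadjusted p under 0.05 (9.76%, against 5.45% of all genes). These 4 were APT2, AAH1, APT1 and FUN26. AAH1, the adenine deaminase that starts the route from adenine to IMP, had 67.0 and 57.9 CPM in the WT libraries against 87.8 and 106 CPM in mutant, a log2 fold change of 0.63 (SE 0.19, adjusted p = 0.755, edgeR). APT1, adenine phosphoribosyltransferase, had 133 and 122 CPM in the WT libraries against 163 and 209 CPM in mutant, a log2 fold change of 0.54. APT2, its paralogue, had 11.9 and 11.97 CPM in the WT libraries against 18.4 and 25.2 CPM in mutant, a log2 fold change of 0.84. In all 3 both mutant libraries were above WT, and mutant replicate 2 was the highest library. AAH1 passed with either WT library left out, with edgeR values of 0.73 and adjusted p = 0.047 when WT replicate 1 was dropped, and of 0.52 and adjusted p = 0.0421 when WT replicate 2 was dropped. APT2 passed in the second of these fits (0.81, adjusted p = 0.0032, edgeR). Without WT replicate 1 AAH1 was the 1 call among the 41, where 0.325% of all genes were called higher and 0.42% lower. Without WT replicate 2 there were 8 calls among the 41 (19.5%), close to the 19.2% of all genes. A single WT library is there taken to have the spread of the mutant group.

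None of the 6 regulators passed. BAS1 had 23.8 and 20.8 CPM in the WT libraries against 21.8 and 23.3 CPM in mutant, and its partner PHO2 had 40.2 and 36.1 CPM in the WT libraries against 32.7 and 31.1 CPM in mutant. The log2 fold change was 0.01 for BAS1, with a 95% interval from -0.49 to 0.50, and -0.26 for PHO2. SML1, the protein inhibitor of ribonucleotide reductase, stood at 0.22, DUN1, the kinase that removes that inhibitor after DNA damage, at 0.30, and RFX1, the repressor of damage-induced RNR genes, at 0.16. For PHO2, DUN1 and RFX1 the groups did not overlap, which was also so for 36.9% of all genes. For BAS1, SML1 and PPR1 they did.

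**Figure D4:**
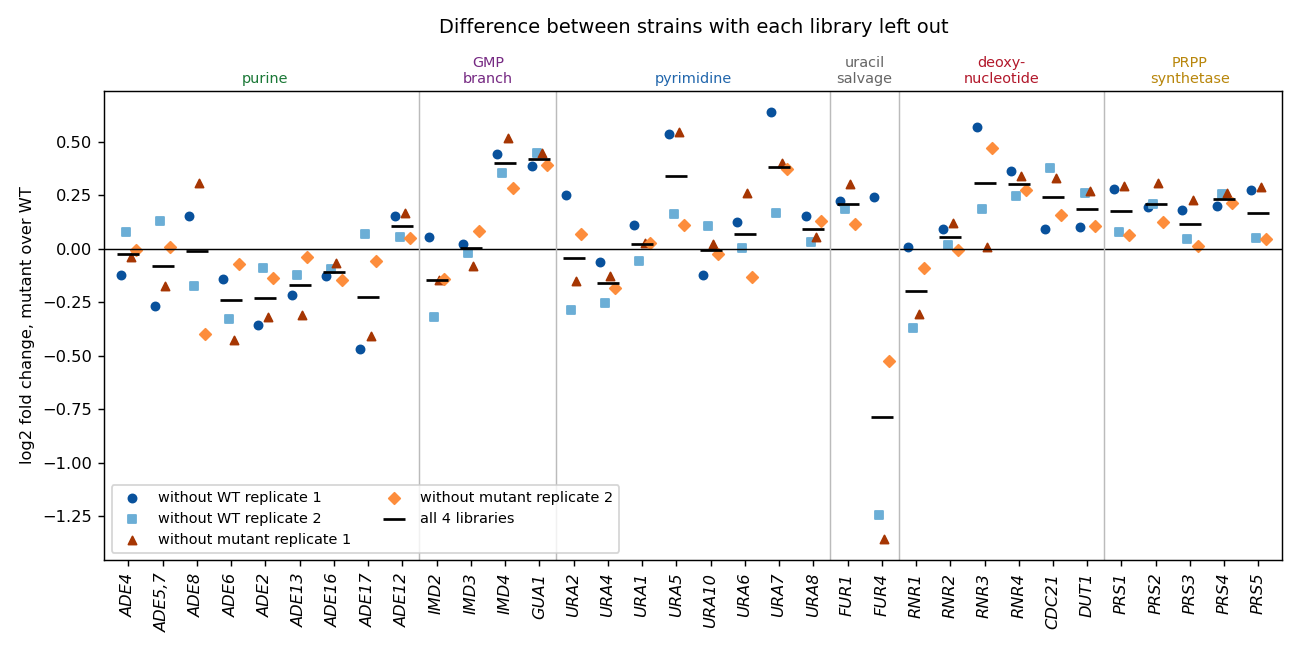
Black bars give the log2 fold change of each gene, mutant over WT, with all 4 libraries, and coloured points the value with 1 library left out. GUA1, IMD4, RNR4 and the 5 PRS genes stay above 0 in every case, whereas ADE17, ADE8, URA2 and FUR4 have points on both sides of 0.

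The sign of the difference held with each library left out for 21 of the 34 genes, 16 above 0 and 5 below. The 5 below were ADE6, ADE2, ADE13, ADE16 and URA4. The 21 include the 13 genes whose groups did not overlap, where leaving out a library can hardly turn the sign. The share over all genes was not computed, so this count has no baseline. The mutant libraries differed from each other along with coding length. Across the 32 genes averaging 100 counts or more, the log2 difference of mutant replicate 2 minus mutant replicate 1 had a Spearman correlation of -0.71 with coding length, against -0.29 across 4598 genes. All points come from the same pair of libraries, so this describes those libraries. ADE8, of 645 bases, stood at 0.70 and URA5, of 681 bases, at 0.43, while ADE6, of 4077 bases, stood at -0.36. The log2 difference of WT replicate 2 minus WT replicate 1 had a correlation with length of -0.06 across the 32 genes and -0.50 across all. For the 32 genes, mutant replicate 2 minus WT replicates 1 and 2 had correlations of -0.58 and -0.45. Mutant replicate 1 minus the same WT libraries had -0.008 and 0.05. The difference between strains also went with length, but this depended on the WT library. Over the 4598 genes, mutant replicates 1 and 2 minus WT replicate 1 had correlations with length of -0.40 and -0.49. Minus WT replicate 2 they had 0.18 and -0.13. With all libraries the median log2 fold change of the 4598 genes was 0.10 under 750 bases and 0.03 from 750 to under 1500. It was -0.06 from 1500 to under 3000 and -0.16 at 3000 bases and over. For the nucleotide synthesis genes the medians were 0.13 (6 genes), 0.14 (12), -0.05 (12) and -0.14 (2) in the same order. All 5 PRS genes are in the second class. The purine genes are in all classes: ADE8 in the first, ADE12 and ADE13 in the second and ADE6 in the last. ADE4, ADE5,7, ADE2, ADE16 and ADE17 are in the third. In the class of the PRS genes, ADE12 had a log2 fold change of 0.11 and ADE13 of -0.17. The part of length in the differences between strains was not tested.

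**Figure D5:**
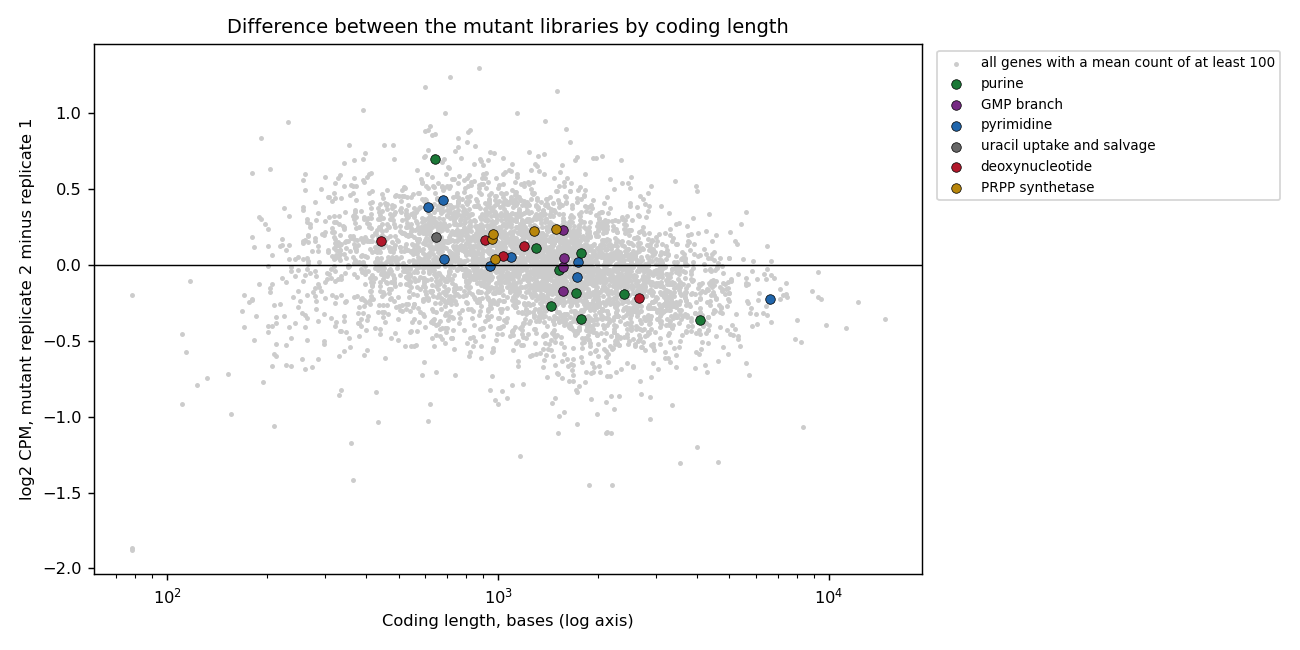
Each point is a gene, with its coding length on a log axis and the log2 CPM of mutant replicate 2 minus that of mutant replicate 1. Grey points are all genes averaging 100 counts or more and coloured points the 32 nucleotide synthesis genes among them, which run from 0.70 for ADE8 to -0.36 for ADE6.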

How the data were processed

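Ribosome footprints of 2 WT and 2 mutant libraries were analysed from raw read counts per coding sequence, in 1 table that the authors deposited without normalization. Bowtie2, DESeq2 and sacCer3 are named in the submitters' processing notes, with no versions; the counting tool, strand setting and gene models are not stated there. Its header is set with single tabs and its lines with doubled tabs, so column names were read as applying, in sequence, to the non-empty fields. Of 6600 row names, 5917 matched RefSeq R64 by systematic name.

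The test was edgeR 4.0.16 (R 4.3.3), quasi-likelihood, two-sided, with TMM normalization and filterByExpr (minimum count 10, with at least 15 in total). P-values were adjusted by Benjamini-Hochberg over 5233 genes, at 0.05. SEs were taken from the fold change and its F statistic. Alternatives were DESeq2 1.42.0, other scalings, no filter, a replicate block, thinning and leaving out each library. Per-kb levels, shares with 95% Wilson intervals, motifs in 500 bases before start codons and shared 28-mers were also computed. Intervals cover counting error only. A count of 0 leaves room for 3 counts, or 0.101 to 1.06 CPM on plain library totals, before TMM normalization. Simulation used 5 draws of 5233 genes for this comparison, each with 200 changed genes. The test called 4.78% of genes changed 1.5-fold, 42.1% changed 2-fold and 95.8% changed 4-fold, and 58 of 25165 unchanged genes. Noise was drawn separately for each gene. The simulated libraries thus lacked differences shared by many genes, such as those that went with length, and the rates may not hold for the real libraries.

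The genes and lists were chosen with earlier results of these data known. All 34 genes and the regulators were to be named, with up to 4 other pathway genes by smallest unadjusted p. ADE1, FUI1, FCY2 and HUG1 were added after their values were seen.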

Additional observations from a re-analysis of the deposited data

How the results depend on the processing

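Counts of calls moved with the WT libraries. With all libraries edgeR called 0 genes higher and 0 lower, and leaving out 1 library gave 0 to 228 higher and 0 to 780 lower. DESeq2 called 0 higher and 4 lower. Of the 34 genes, 0 were called higher in every fit and 0 to 1 lower with a library left out, the 1 being FUR4. Their median log2 fold change ranged from 0.0373 to 0.14 with a library left out. With other scalings, no filter, thinning or the replicate block no gene was called, and the median stayed within the spread between replicates. The replicate block gave 0 called genes and a median of 0.06. At an unadjusted p under 0.05 it gave 1 of the 34 (2.94%, all genes 8.54%). Deviations from the group means correlated at 0.08 between same-numbered libraries over 4598 genes, and the labels tie the numbers to nothing, so they were not taken as pairs. Signs turned for small values: IMD3 stood at -0.0007 (RLE scaling and replicate block), -0.0004 (DESeq2), -0.0036 (no filter) and -0.0164 (plain totals). Thinning to the smallest total put URA1 at -0.0191, URA6 at -0.0152, URA10 at 0.15 and BAS1 at -0.0783. BAS1 was at -0.011 with plain totals and URA10 at 0.007 with the block. With 1 library left out the log2 fold change of ADE17 ran from -0.47 to 0.0695, of ADE4 from -0.12 to 0.0795, of ADE5,7 from -0.27 to 0.13, of ADE8 from -0.40 to 0.31 and of IMD2 from -0.32 to 0.0561. It ran from -0.0807 to 0.0843 for IMD3, -0.28 to 0.25 for URA2, -0.058 to 0.11 for URA1, -0.12 to 0.11 for URA10 and -0.13 to 0.26 for URA6. It ran from -1.35 to 0.24 for FUR4, -0.37 to 0.007 for RNR1, -0.007 to 0.12 for RNR2, -0.0905 to 0.10 for BAS1, -0.51 to 0.0547 for PPR1 and -0.0041 to 0.43 for SML1. The cause was not tested. Depth limits RNR3 and FUR4 most, with 8 and 6 counts in mutant replicate 2.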
